A study of Mus musculus with 6 samples.

Results

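NRF2 peaks called in both genotypes in 1 culture medium, and in neither genotype in the other medium, were collected from mouse embryonic fibroblasts (MEFs). Peaks of 4 NRF2 lists that overlapped by at least 1 bp were merged into 14390 regions. The leucine-free set holds the 97 regions that both lists made without leucine hold and both complete-medium lists lack, which is 0.674% of all regions. The complete-medium set holds the 23 regions of the mirror rule, which is 0.16% of all regions. The 120 members were thus chosen by the presence and absence of called peaks in these same lists. Their number and their presence by medium are therefore descriptions, and no test is made of them.

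The study used chromatin immunoprecipitation and sequencing (ChIP-seq) to ask where NRF2 sits on DNA when an amino acid is missing, with and without GCN2. The MEFs were of the 129S6/SvEvTac strain and were either wild type (WT) or knockout for GCN2 (KO). Each genotype spent 24 h in complete DMEM or in DMEM without leucine, and NRF2 was pulled down with the antibody ab62352 from Abcam. Each of the 4 conditions had 1 NRF2 library, and each genotype had 1 input library from complete medium, so 6 samples in all. No label says how many embryos or clones the cells came from, and no difference below has a replicate check. In complete medium the list of WT cells had 2336 peaks and that of KO cells 3141, and without leucine the numbers were 5980 and 4600. Sequencing depth is unknown for all 4 lists. Peak lists do not measure RNA, so neither the fibroblast identity nor the knockout could be checked against transcripts.

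NRF2 is a basic leucine zipper transcription factor encoded by Nfe2l2. It pairs with small Maf proteins at antioxidant response elements and activates genes for glutathione synthesis, quinone reduction, and heme and iron handling. BACH1, a heme-binding repressor, competes for the same elements, and AP-1 dimers of FOS and JUN proteins bind a related motif. GCN2, encoded by Eif2ak4, senses uncharged tRNA when amino acids run short and raises ATF4.

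One member overlapped a promoter window of the RefSeq table (GRCm38.p6, the assembly of the files' build mm10), which spans 250 bases before to 50 after each gene start. It is the leucine-free region upstream of the non-coding gene 1700101I11Rik, and its promoter at chr6:129533235-129533534, minus strand, is printed because it is the sequence of a member that the reference tables hold. Capitals mark the 31 bases that lie under both the WT and the KO peak.
1700101I11Rik promoter: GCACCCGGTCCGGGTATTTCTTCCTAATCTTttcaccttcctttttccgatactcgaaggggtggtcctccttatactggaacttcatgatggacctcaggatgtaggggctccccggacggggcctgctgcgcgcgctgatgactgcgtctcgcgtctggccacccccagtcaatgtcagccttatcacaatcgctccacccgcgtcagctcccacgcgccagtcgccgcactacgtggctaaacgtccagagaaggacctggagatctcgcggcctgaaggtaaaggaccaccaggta
Neither the antioxidant response element core TGACNNNGC nor the AP-1 motif TGANTCA was found on either strand of this window, a statement about these letters alone. Among all 32851 promoters of the table, 12.4% held the first motif and 7.81% the second, and 1 site can match both.

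Another 3 members had a microRNA gene as the nearest transcription start site (TSS). Mir7671 belongs to the leucine-free set, and Mir1962 and Mir7005 belong to the complete-medium set. Their mature sequences from RefSeq (GRCm38.p6) are given to identify these genes, with the seed, bases 2 to 8, in capitals.
miR-7671-5p: aGGCUCCGcucuggcuagcuucc
miR-7671-3p: aAGCGGGCaggcggagaaccac
miR-1962: aGAGGCUGgcacugggacacau
miR-7005-5p: cCUGGGGAugggaggaccagca
miR-7005-3p: cUGUGCCUgcuacccaucccuugca
The 5 mature sequences carried 5 different seeds. The Mir7671 windows (chr11:53764087-53764387 in both lists) were centred at -583 bp relative to the gene start and were annotated to its promoter. In contrast, the Mir1962 site lay 4175 bp downstream of that start within intron 1 of 20 of Ptpre, a receptor tyrosine phosphatase gene. The Mir7005 site lay at -19147 bp, in exon 13 of 79 of Lama5, a laminin chain gene, where the WT and KO windows overlapped by 30 bp.

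Pairs of lists were compared first, asking how often a site recurred across genotypes in 1 medium alone. WT and KO cells without leucine shared 476 regions, of which 379 were also in a complete-medium list and 97 were not. The 97 were 20.4% of the shared regions (95% Clopper-Pearson interval 16.8% to 24.3%), 1.62% of the WT list and 2.11% of the KO list. WT and KO cells in complete medium shared 365 regions, of which 342 were also in a list without leucine and 23 were not. The 23 were 6.3% of the shared regions (4.04% to 9.31%), 0.985% of the WT list and 0.732% of the KO list. Most sites that both genotypes shared in a given medium were therefore also called in the other medium.

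The 2 counts come from lists of unequal length, so each was also divided by the number of possible pairs of peaks. This divisor leaves out the lengths of the 2 lists that had to lack the region. Like rates from the full lists therefore do not show that the sets are alike, and counts at equal list lengths are given below. The leucine-free set then held 3.53 regions per 1000000 pairs of peaks (exact Poisson interval 2.86 to 4.3) and the complete-medium set 3.13 (1.99 to 4.7). List pairs that share neither medium nor genotype gave like values. WT in complete medium with KO without leucine alone shared 44 regions, 4.09 per 1000000 (2.98 to 5.5). WT without leucine with KO in complete medium alone shared 66 regions, 3.51 per 1000000 (2.72 to 4.47). Per pair of peaks, both medium pairs and both mixed pairs thus ranged from 3.13 to 4.09. List pairs of 1 genotype across the media alone shared more, with 149 regions in WT, 10.7 per 1000000 (9.02 to 12.5), and 97 in KO, 6.71 per 1000000 (5.44 to 8.19). Lists of 1 genotype were called against the same input library, and what part the shared input or the shared cells has in this cannot be told apart.

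With every list reduced to its 2336 highest-scoring peaks, the leucine-free set held 56 regions, of which 52 were among the 97. The complete-medium set then held 26, of which 20 were among the 23. Per 1000000 pairs of peaks this was 10.3 (7.75 to 13.3) and 4.76 (3.11 to 6.98), and the mixed pairs gave 6.78 (4.77 to 9.35) and 8.61 (6.33 to 11.5). The KO lists of both media alone shared 61 regions at this length, 11.2 (8.55 to 14.4), close to the leucine-free value, and the WT lists 127, 23.3 (19.4 to 27.7). These counts describe the lists, the intervals cover counting error only, the classes share lists, and no difference between them was tested.

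**Figure D1:**
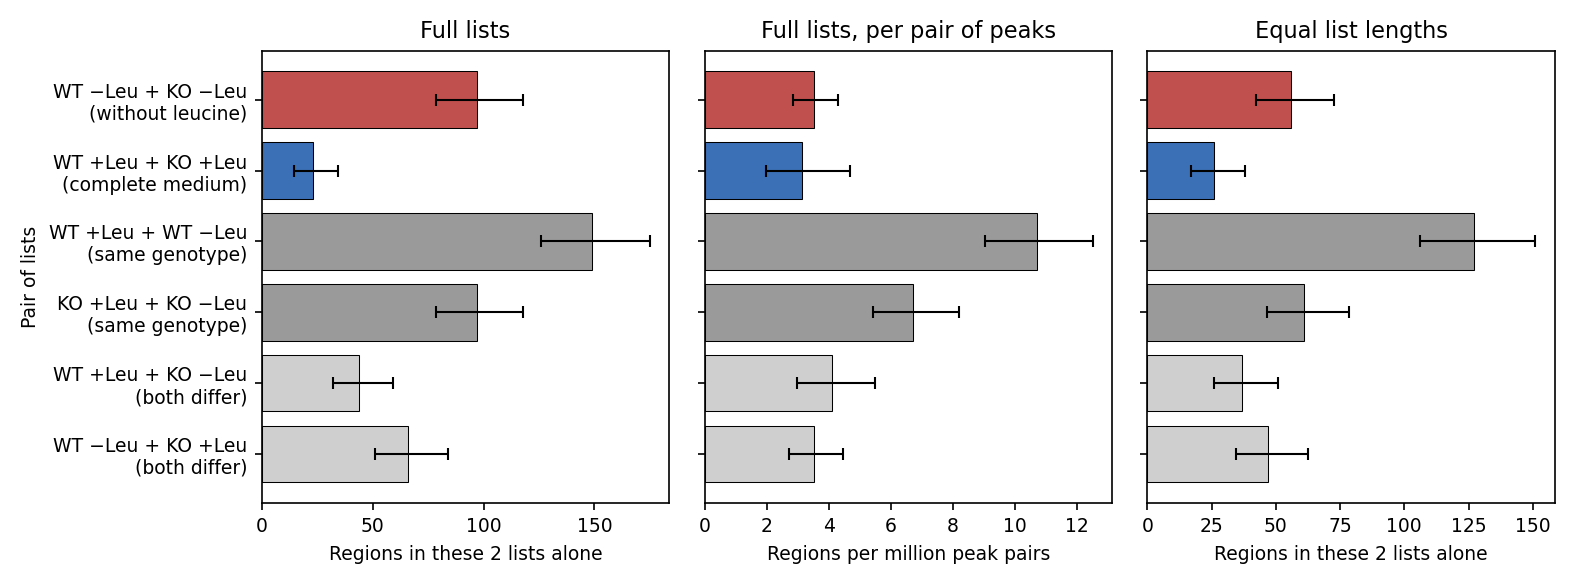
Regions held by exactly 2 lists, for each pair of lists (vertical axis; +Leu is complete medium, −Leu is medium without leucine), as counts from the full lists (left), as counts per 1000000 possible pairs of peaks (middle) and as counts at equal list lengths of 2336 peaks (right). Bars are single counts and lines exact 95% Poisson intervals. Per pair of peaks, the leucine-free (97) and complete-medium (23) sets are near the mixed pairs, and same-genotype pairs lie higher. This divisor leaves out the lengths of the excluded lists. At equal lengths the leucine-free set (56) is close to the KO pair (61).

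The sites of highest rank came next. The peak score is the authors' whole number per peak, used here only to rank peaks within a list, where rank 1 is the highest score. The leading region of both sets lay in Rn45s, the gene of the 45S precursor of ribosomal RNA, at different positions of the same exon. In the leucine-free set it was chr17:39843243-39843543, 396 bp into the gene, with a score of 191 in WT (rank 116) and 135 in KO (rank 149). In the complete-medium set it was chr17:39845462-39845762, 2615 bp into the gene, with a score of 303 in WT (rank 46) and 133 in KO (rank 118.5). The nearest peak of an excluded list was 1919 bp from the leucine-free site and 1698 bp from the complete-medium site. Further into the gene, all 4 lists held a peak of a shared region, starting at 39848427 in WT and 39848144 in KO in complete medium, and at 39848480 and 39848464 without leucine, with scores of 177, 81, 281 and 122. The KO windows of that region did not overlap each other directly but were joined through the WT windows. Rn45s therefore carried a called peak in every list, and the members are further positions in it. WT cells without leucine had 1 more Rn45s peak, with a score of 179, in no other list. Ribosomal RNA genes are a tandem repeat with many copies, so reads placed at this single unit can come from any copy.

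Below Rn45s, the leucine-free set was led by sites far from gene starts. A window 73195 bp into Tbxas1, the thromboxane A synthase gene, scored 120 in WT (rank 254) and 185 in KO (rank 94.5) and was annotated to an L1ME3 LINE element. Within Sort1, which encodes the sorting receptor sortilin, a window on a B1_Mur1 SINE element 34599 bp from the start scored 126 in WT (rank 228) and 96 in KO (rank 240). Intron 1 of 11 of Shc3, an adaptor protein gene, scored 84 in WT (rank 403.5) and 131 in KO (rank 156). These 3 sites were within genes, and each was in the upper 10% of both lists.

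Closer to a start, intron 2 of 4 of Dynlt1b, a dynein light chain gene with near-identical neighbouring copies, held a site at 3730 bp with a score of 78 in WT (rank 443.5) and 141 in KO (rank 142). Reads at this site may be shared among the copies. Exon 2 of 3 of Enc1, which encodes an actin-binding kelch protein, held a site at 4212 bp with a score of 72 in WT (rank 501.5) and 76 in KO (rank 345). The Lao1 site, near the gene of an L-amino acid oxidase, lay 11548 bp from the start on an RLTR14-int LTR element and scored 85 in WT (rank 394) and 69 in KO (rank 396). Both genotypes ranked these sites within the upper 10% of the list.

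The remaining named regions of the leucine-free set by rank were assigned to Pisd-ps3, Syt13, D830013O20Rik, 9230102O04Rik, Slc28a1, Rad23b, Nav2 and Magi2. Their scores ran from 51 to 143 in WT and from 55 to 167 in KO. Rad23b, a gene of nucleotide excision repair, had the highest WT score of these (143, at -24080 bp) and the lowest KO score (55). Nav2, a neuron navigator gene, had the reverse order, with 51 in WT and 167 in KO. The Pisd-ps3 site lay on an unplaced contig, and the windows nearest to 9230102O04Rik and Slc28a1 lay inside introns of other genes, Taf3 and Alpk3. Nearest-start assignment therefore does not name the gene that holds the site in these cases.

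After Rn45s, the complete-medium set was led by distal sites as well. The region assigned to Nabp1, which encodes a single-strand DNA binding protein, lay at -211682 bp and scored 99 in WT (rank 242.5) and 85 in KO (rank 236.5). Intron 4 of 7 of Atxn1, the ataxin 1 gene, scored 102 in WT (rank 228) and 66 in KO (rank 340). A B3 SINE element 5824 bp into Phc2, a Polycomb subunit gene, scored 82 in WT (rank 303.5) and 61 in KO (rank 401.5). Of these, Phc2 was the site within 10 kb of a start.

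The other regions among the 10 of best mean rank were assigned to Tac4, Vwa8, Cops8, St5, Sox5 and Bach1. Scores there ran from 51 to 125 in WT and from 36 to 64 in KO. The Tac4 window was annotated to the 3' UTR of the neighbouring gene Kat7, a histone acetyltransferase gene. The Cops8 site, at -175076 bp from this COP9 signalosome subunit gene, was on an ORR1A2 LTR element, and the St5 site was on an RMER19B LTR element.

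Ranks of the 2 genotypes agreed only loosely at the same site. In the leucine-free set, scores ran from 16 to 191 with a median of 42 in WT and from 17 to 185 with a median of 44 in KO, where the lowest score of every list was 13. In the complete-medium set they ran from 17 to 303 with a median of 59 in WT and from 23 to 133 with a median of 43 in KO. As a percentage of the list counted from the top, the median rank of the leucine-free set was 23.9% in WT (95% interval 15.5% to 30.1%) and 23.5% in KO (14.9% to 34.8%). For the complete-medium set it was 21.9% in WT (13.8% to 44.2%) and 27.6% in KO (12.8% to 55.8%). Pooled over different libraries, the other list pairs had medians of 27.5% and 17.9%. By single pair, in complete medium and without leucine, the medians were 27.4% and 10.1% in WT and 37.1% and 28.8% in KO. The mixed pairs gave 32.7% in WT with 16.35% in KO, and 20.7% with 30.2%. The medians of the members thus lay within the range of the other pairs, 10.1% to 37.1%. By median rank, regions of 2 lists stood between the regions held by 1 list, whose medians ranged from 50.4% to 60.0%, and those held by all 4 lists, whose medians ranged from 2.68% to 7.32%.

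Both peaks were in the upper 50% of their lists at 53 of 97 leucine-free regions (54.6%, 44.2% to 64.8%) and at 14 of 23 complete-medium regions (60.9%, 38.5% to 80.3%). Across regions, Spearman's rho between the WT and KO ranks was 0.4 over 97 regions and 0.32 over 23, a description of regions that share 2 libraries and are not replicates. The median absolute gap between the 2 percent ranks was 13.6 percentage points in the leucine-free set and 15.8 in the complete-medium set. The other list pairs gave like values, with both peaks in the upper 50% at 55.9% of 356 regions and a rho of 0.44, so loose agreement was not limited to the members. Rn45s ranked high in all 4 lists, whereas Synj2 was in the lower part of both its lists, with a score of 17 in WT and 27 in KO.

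**Figure D2:**
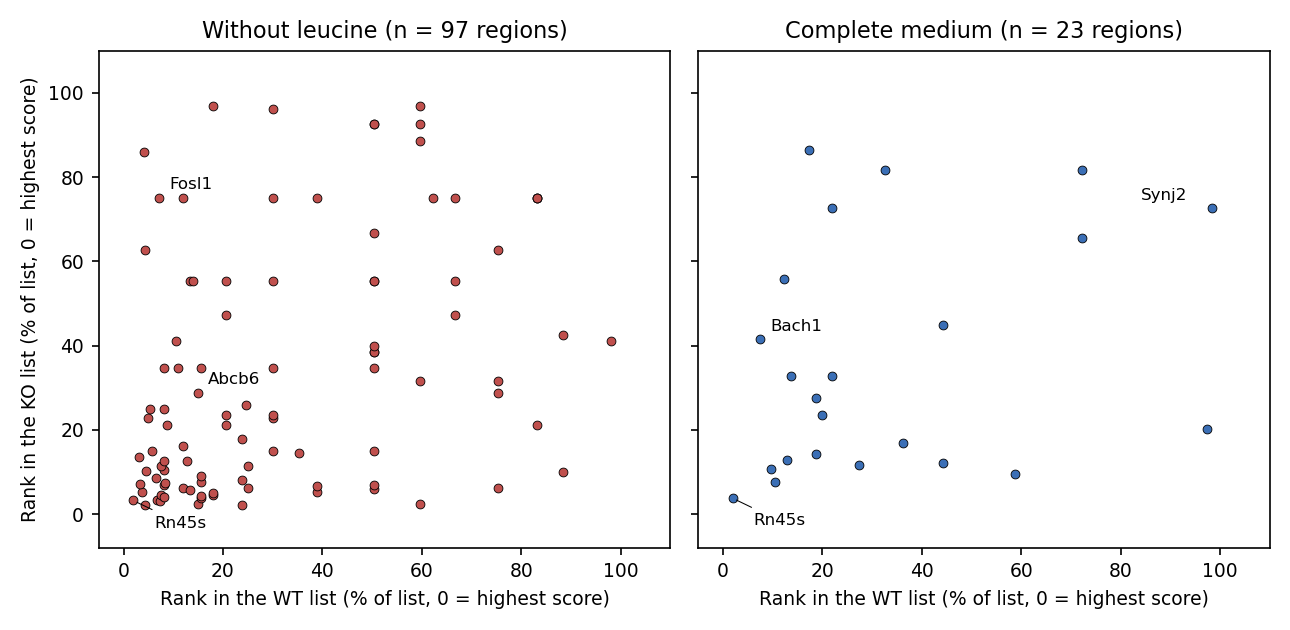
Rank of each member in the WT list (horizontal) and the KO list (vertical), as a percentage of list length with 0 at the highest score, for the leucine-free set (left, 97 regions) and the complete-medium set (right, 23 regions). Points gather at the lower left with a wide scatter; Fosl1 is high in the WT list (7.18%) and low in the KO list (75.1%), and Bach1 stands at 7.53% and 41.5%.

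The windows of the 2 genotypes were also compared in position. The centres of the WT and KO peaks were a median of 35 bp apart in the leucine-free set (28 to 45) and 63 bp apart in the complete-medium set (21 to 104). They lay within 50 bp of each other at 63 of 97 regions (64.9%, 54.6% to 74.4%) and at 10 of 23 regions (43.5%, 23.2% to 65.5%), and the intervals overlap. The nearest gene was the same in both genotypes at all 97 and all 23 regions. The annotation class was the same at 95 and 23 regions, the exceptions being Slc6a12 and Dnah17, singled out after their values were seen, where 1 window was called exon and the other intron. The smallest overlaps were 9 bp at Tmem211 and 17 bp at B230214G05Rik in the leucine-free set and 30 bp at Mir7005 in the complete-medium set.

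Annotation and distance to the TSS were not used to choose the members. Introns held 48 of 97 leucine-free regions (49.5%, 39.2% to 59.8%) and 10 of 23 complete-medium regions (43.5%, 23.2% to 65.5%). Intergenic windows numbered 39 (40.2%, 30.4% to 50.7%) and 10 (43.5%). Promoter windows numbered 2 in the leucine-free set, at Mir7671 and 1700101I11Rik (2.06%), and 0 of 23 in the complete-medium set. The 0 allows a share of up to 13% at 3 counts of the total and 14.8% by the Clopper-Pearson bound. The promoter share of the other list pairs was 1.97%. Both sets thus lay mainly in introns and between genes, as did the 356 regions of the other list pairs, with 45.8% in introns and 44.9% intergenic. Among intron windows, 15 of 48 (31.2%) and 3 of 10 (30%) were in the first intron, near the 31.3% of the other list pairs. The window lay in a transcript of another gene than the nearest start in 17 of 57 leucine-free regions with a matched transcript (29.8%). In the complete-medium set this held for 4 of 12 (33.3%), and the other list pairs gave 28.9%.

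Repeat elements covered the annotated position of 35 of 97 leucine-free regions (36.1%, 26.6% to 46.5%) and 6 of 23 complete-medium regions (26.1%, 10.2% to 48.4%). Regions of the other list pairs gave 30.6% and regions in 1 list 26.6%. SINE elements, short retrotransposon copies, accounted for 16 of 97 leucine-free regions (16.5%, 9.73% to 25.4%) and 3 of 23 complete-medium regions (13%, 2.78% to 33.6%). The share was 11.8% in the other list pairs, 9.38% (6.1% to 13.6%) in regions of all 4 lists and 7.67% (7.22% to 8.13%) in regions of 1 list. The interval of the leucine-free set thus lay above that of regions of 1 list and overlapped that of regions of all 4 lists. The leucine-free interval also held the pooled share of the other list pairs. Of the single pairs, both WT lists gave 9.4%, below that interval, and the others gave 11.3%, 15.9% and 15.2%, and no difference was tested. By family, the leucine-free set had 9 ERVL-MaLR (9.28%), 7 B2 (7.22%), 7 B4 (7.22%) and 5 L1 copies (5.15%). The other list pairs gave 7.58%, 7.02%, 3.65% and 3.37%, and regions of 1 list 4.89%, 1.95%, 3.58% and 6.16%. The SINE regions of the complete-medium set, at Phc2, Otogl and Naf1 (named after their values were seen), were all of the B2 family. With reads of 50 bp, reads from like copies may be placed at the wrong copy, which was not tested.

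**Figure D3:**
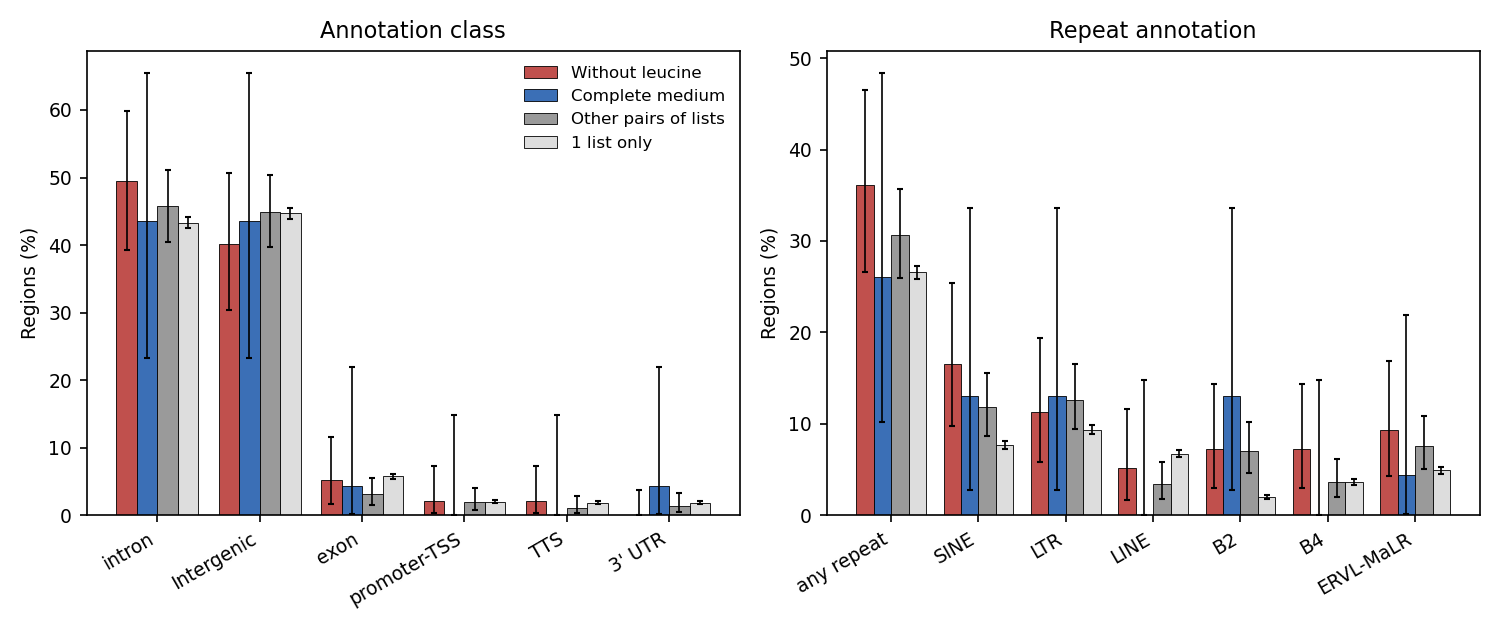
Share of regions (vertical axis, %) by annotation class (left) and by repeat class or family (right) for the leucine-free set (97 regions), the complete-medium set (23), the other pairs of lists (356) and regions of 1 list (13449). Lines are exact 95% Clopper-Pearson intervals, for which a 0 has an upper bound only. Introns and intergenic windows make up most of every group. The SINE share is 16.5% in the leucine-free set, 11.8% in the other pairs of lists and 7.67% in regions of 1 list.

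Distance to the nearest start was similar in both sets. The median was 29534 bp in the leucine-free set (22460 to 39464) and 37252 bp in the complete-medium set (8167 to 73736), against 24665 bp in the other list pairs, 28801 bp in regions of 1 list and 19664 bp in regions of all 4 lists. Sites within 10 kb in both genotypes numbered 18 of 97 (18.6%, 11.4% to 27.7%) and 7 of 23 (30.4%, 13.2% to 52.9%). The other list pairs gave 26.4% (21.9% to 31.3%), regions of 1 list 25% and regions of all 4 lists 37.9% (31.9% to 44.1%). The share in the leucine-free set lay below that of regions in all 4 lists with separate intervals, and its interval held the share of regions in 1 list. Regions of 1 list and of all 4 lists were counted on 1 window, an unlike and looser rule. Of the single pairs, both KO lists gave 20.6%, both WT lists 32.9% and the mixed pairs 18.2% and 25.8%. A low share was thus not limited to the leucine-free set. Within 1 kb there were 4 leucine-free regions, at Rn45s, Abcb6, Mir7671 and 1700101I11Rik, and 0 of 23 complete-medium regions.

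**Figure D4:**
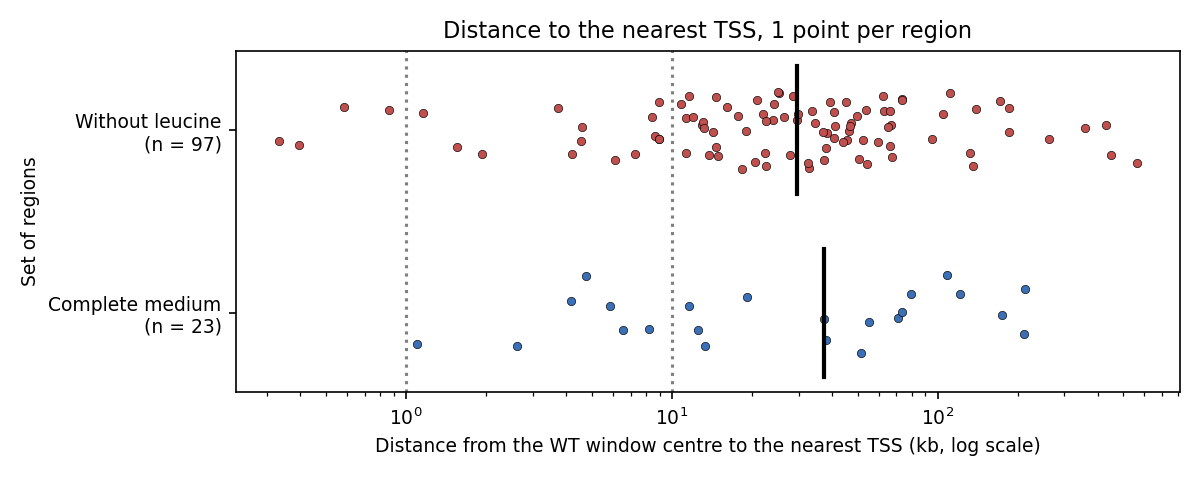
Absolute distance from the WT window centre to the nearest TSS (horizontal, kb, log scale), 1 point per region, spread vertically for visibility, with a black line at the median. Dotted lines mark 1 kb and 10 kb; medians are 29534 bp without leucine and 37252 bp in complete medium, and points of both sets spread on either side of 10 kb.

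The 7 complete-medium sites within 10 kb of a start were at Rn45s, Phc2, Bach1, Tmem33, Mir1962, Dcpp2 and Synj2. The intergenic Tmem33 site lay at -4732 bp and scored 40 in WT and 35 in KO. Dcpp2 scored 19 in WT and 51 in KO, and intron 6 of 19 of Synj2, an inositol phosphatase gene, scored 17 and 27. Tmem33 thus stood near the middle of both lists, and Mir1962, Dcpp2 and Synj2 stood in the lower 50% of at least 1 list. The 4 leucine-free sites within 1 kb of a start ranged from the top of the lists, at Rn45s, to the middle. Abcb6 stood at 14.9% of the WT list and 28.8% of the KO list. The 1700101I11Rik promoter scored 30 in WT (rank 3013) and 35 in KO (rank 1830.5), and Mir7671 scored 38 (rank 1800) and 44 (rank 1081).

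The genes at these sites were then read against 7 gene lists with 238 entries, of which 236 matched the reference table, counting a gene when a region lay within 10 kb of its start. Background shares are small, since 17 of the 49997 genes of the table had a leucine-free region within 10 kb (0.034%), 6 had a complete-medium region (0.012%) and 92 had a region of all 4 lists (0.184%). Of 63 NRF2 target genes, 0 had a region of either set at any distance. Within 10 kb, 18 had a region of all 4 lists and 6 a region of the other list pairs. Of 47 amino acid response genes, which include ATF4 targets, 0 had a region of either set, and 0 had a region of all 4 lists. Of 41 autophagy and lysosome genes, 0 had a region of either set, and 2 had a region of all 4 lists. That gene list is not complete. Leucine-free regions were assigned to Atp6v1c1, a lysosomal ATPase subunit gene, at 29534 bp, and to Lamtor4, a lysosomal adaptor gene, at -13160 bp. Both genes are outside the gene list, lay beyond 10 kb and were picked after their values were seen. Counts of 0 are also what the background shares give for lists of this size, so nothing is read from them about the sets. The 8 fibroblast and 6 macrophage marker genes likewise had 0 regions in both sets.

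Listed genes with a member region were 3, and each held it in the first intron, close to the start. Abcb6, a porphyrin transporter gene of the heme and iron list (1 of 50), held the leucine-free region chr1:75179268-75179568 in intron 1 of 18, at 865 bp in WT and 825 bp in KO. It scored 51 in WT (rank 891.5) and 39 in KO (rank 1326.5), and no list held another peak assigned to Abcb6. Fosl1, which encodes the AP-1 subunit FRA-1 and belongs to the list of AP-1, CNC and small Maf genes (1 of 23), held the leucine-free region chr19:5448706-5449006 in intron 1 of 3, at 1158 bp in WT and 1111 bp in KO. The WT score was 80 (rank 429.5) and the KO score 24 (rank 3455), and no list held another peak assigned to Fosl1. For Abcb6 and Fosl1 the leucine-free peak was thus the sole assigned peak in either genotype, and at Fosl1 the KO peak was in the lower 50% of its list.

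Bach1, counted in both of those lists (1 of 50 and 1 of 23), held the complete-medium region chr16:87699902-87700202 in intron 1 of 4. It was 1098 bp from the start in WT, with a score of 125 (rank 176), and 1167 bp in KO, with a score of 36 (rank 1303.5). The same intron held another site deeper in, at 14242 bp in WT in complete medium with a score of 89, at 14237 bp in WT without leucine with a score of 128, and at 14190 bp in KO in complete medium with a score of 28. Intron 1 of Bach1 was therefore not free of NRF2 peaks in WT cells without leucine. KO cells without leucine had 1 peak assigned to Bach1, at -51191 bp, with a score of 39.

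Absence from the excluded lists was examined last. A peak of an excluded list lay within 10 kb of 9 of 97 leucine-free regions (9.28%, 4.33% to 16.9%) and of 4 of 23 complete-medium regions (17.4%, 4.95% to 38.8%). The nearest misses were Gata3, 141 bp from a peak of WT cells in complete medium, Clasp1 at 717 bp, and Synj2 in the complete-medium set at 1587 bp. The median distance to the nearest peak of an excluded list was 97901 bp in the leucine-free set (72448 to 120040) and 55602 bp in the complete-medium set (19579 to 116080). Such a peak within 1 kb was found for 2 of 97 (2.06%) and 0 of 23 regions (upper bound 14.8%), and for 14 of 356 regions of the other list pairs (3.93%). Windows that overlap had already been merged by the rule, so this count covers only windows that lie apart. The nearest gene had a peak somewhere in an excluded list for 40 of 97 (41.2%, 31.3% to 51.7%) and 12 of 23 (52.2%, 30.6% to 73.2%) regions. The other list pairs gave 44.9% for the nearest gene and 14% for a peak within 10 kb, so both measures were near those of any region shared by 2 lists. A missing peak means a site below the authors' threshold and does not show that NRF2 was absent.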

How the data were processed

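The 4 NRF2 peak lists were used as the authors deposited them. Reads of 50 bp were handled with BWA 0.7.12, MACS2 2.1.0 and HOMER 4.7 on mm10, per the submitters' processing notes, which state no settings. Each library was called separately against the complete-medium input of its genotype, per the file headers, so the lists without leucine also rest on a complete-medium input. Windows are 300 bp wide and carry the nearest TSS and a feature class. The score is a whole number the authors deposited with each peak, and the sources used here do not say which column of the caller it came from. GC content was deposited by the authors as a fraction of the window. The input libraries entered only through the authors' calls.

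Peaks were merged at an overlap of 1 bp or more with pandas 2.3.3 on Python 3.11.15. The merging was tested on simulated peaks. Ranks were taken within a list, with ties at their mean rank, and where 2 peaks of a list fell in 1 region the best-ranked was used. Intervals at 95% (Clopper-Pearson, Poisson and order statistics, scipy 1.17.1) cover counting error only. With 1 library per condition no p-value is given. Positions, class and distance are those of the WT window where the lists differ. Named were the 15 leucine-free and 10 complete-medium regions of best mean percent rank, those within 1 kb (leucine-free) or 10 kb (complete-medium) of a TSS in both lists, regions at listed genes, and regions nearest to an excluded peak or of smallest overlap. The members and gene lists were chosen with earlier results of these data known.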

Additional observations from a re-analysis of the deposited data

How the results depend on the processing

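The counts of 97 and 23 regions are of unknown depth and rest on the authors' threshold. Equal list lengths gave 56 leucine-free regions, fewer than the full lists by more than 1.5 times, and 26 complete-medium regions. The other alternatives, which were the higher-scoring 50% of each list, peaks widened by 500 bp, a reciprocal overlap of 50%, centres within 100 bp and the main chromosomes without satellite, simple repeat, low complexity and ribosomal RNA peaks, gave 70 to 132 leucine-free and 18 to 29 complete-medium regions. The leucine-free count exceeded the complete-medium count under each of them, but all kept the lists without leucine longer. Under those alternatives the order therefore cannot be told apart from list length. At equal list lengths the counts were 56 (exact Poisson interval 42.3 to 72.7) and 26 (17 to 38.1), in the same order. That difference was not tested. Per pair of peaks, in the unit used above, the 2 sets gave 10.2 and 9.82 for the higher-scoring 50% and 4.8 and 3.95 for widened peaks. Reciprocal overlap gave 3.2 and 3.13, near centres 2.87 and 2.86, and the main chromosomes 3.55 and 3.21. This divisor leaves out the lengths of the excluded lists. The share of regions near a TSS follows its limit by construction, with 4.12% within 1 kb and 71.1% within 50 kb in the leucine-free set and 0% and 56.5% in the complete-medium set. No paired analysis was possible because each condition has 1 library and no result comes from a test.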

Other observations

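Leucine-free regions were followed along the chromosomes. Of the 97, 17 (17.5%) had another region of the set within 1 Mb and 6 (6.19%) within 100 kb. Among regions of the other list pairs, 31 of 149 shared by both WT lists and 8 of 97 shared by both KO lists had such a neighbour within 1 Mb. For WT in complete medium with KO without leucine it was 2 of 44, and for the other mixed pair 8 of 66. A larger set has more neighbours by its size alone, so shares of sets of unequal size are not compared. The longest run was on chromosome 7, where regions assigned to Zfp710, Furin, Iqgap1 and Slc28a1 followed each other at 384952, 431797 and 259824 bp. Furin encodes a proprotein convertase and Iqgap1 a scaffold protein of the cytoskeleton. On chromosome 2, Gata3 and 9230102O04Rik lay 61067 bp apart, and Chst1 and Syt13 lay 74065 bp apart. Another pair, 12640 bp apart on chromosome 9, was assigned to 1 gene, 4933432G23Rik. These runs were picked after the positions were seen. In the complete-medium set 2 of 23 regions, at Taf4a and Mir7005, had a neighbour within 1 Mb, 330358 bp apart.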
